A study of Drosophila melanogaster with 12 samples.

Results

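Many genes end their transcripts at more than one poly(A) site within the 3'UTR, and the choice between such tandem sites sets how much of the 3'UTR an mRNA carries. Here, pairs of tandem sites that lie far apart were examined in adult Drosophila melanogaster: the 2 most used 3'UTR sites of a protein-coding gene on chromosome arm 2L, at least 500 nt from each other. The distance was first set at 1000 nt, but 49 pairs met it, under the 50 required, so 500 nt was used. That count takes the minor site's share from mean CPM over libraries; with the mean of the libraries' shares in its place, 60 pairs met 1000 nt, so the step to 500 nt rests on this reading of the rule and on 1 pair. This gave 124 pairs in 124 genes, called wide pairs below, out of 600 pairs on 2L and 737 pairs tested. Of the wide pairs, 75 spanned 500 to under 1000 nt, 37 spanned 1000 to under 2000 nt and 12 spanned 2000 nt or more.

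A 3'UTR carries binding sites for RNA-binding proteins and microRNAs, so a transcript that ends at the distal site can hold regulatory elements that the short form lacks. In Drosophila, neurons are known for long 3'UTR forms, and the neuronal ELAV family of RNA-binding proteins is known to promote them by blocking the use of proximal sites. The speed of RNA polymerase II is a further known influence, because a slow polymerase leaves more time for the proximal site to be used before the distal one is transcribed.

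Poly(A) positions were sequenced by 3'READS or 3'READS+, methods that capture RNA fragments ending in a poly(A) tail, so that reads mark transcript ends. The 12 libraries came from 2 head and 2 body samples of adult flies of the strain RpII215, which carry the RNA Pol II 215 C4 allele, and from 4 head and 4 body samples of adult w1118 flies, the wild type. The RpII215 gene codes for the largest polymerase II subunit, and its C4 allele is known to slow elongation. The mutant is 1 strain with its own background, so the allele and the rest of that background cannot be told apart. Age and sex of the flies are not stated. Nothing in the labels shows that replicates came from different flies, so p-values here cover library-to-library spread, part of which may be technical.

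The libraries held 2219693 to 9062730 reads. Their sample numbers fall into an earlier range (wild-type replicates 1 and 2 of both tissues) and a later range (wild-type replicates 3 and 4 and all mutant samples), which was treated as a technical batch. RpII215 lies on another chromosome and was not analysed here, so the genotype labels were not checked. Of 8 head marker genes, 7 were measured: their summed level was 27390 to 29590 CPM in mutant heads, 28070 to 111700 in wild-type heads, 158 to 195 in mutant bodies and 174 to 5298 in wild-type bodies. The wild-type body libraries of the earlier range, at 3801 and 5298 CPM, stood apart from those of the later range, at 174 and 191 CPM. The 4 body markers summed to 43.2 to 237 CPM over all head libraries and 6018 to 8939 CPM over all body libraries.

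The wide pairs were first described by position. The median distance was 825 nt, with a range of 501 to 9298 nt. The genomic span from the gene's last coding base was 236 nt to the proximal site and 1231 nt to the distal site, at the median. Introns were not removed from these spans, so they are not measured 3'UTR lengths. The distal site lay within 24 nt of an annotated transcript end in 69 pairs (55.6%), and the proximal site did so in 49 (39.5%). In 28 pairs the distal site lay more than 24 nt past the annotated gene end. A gene on the opposite strand lay between the 2 sites, at least in part, in 44 pairs (35.5%), against 228 of all 600 pairs on 2L (38.0%). The genes were long: the median gene spanned 7472 nt for wide pairs and 3222 nt over all pairs on 2L. The distal site was the less used of the 2 in 65 wide pairs (52.4%), against 52.2% of all pairs on 2L. The wide pairs held a median of 85.0 reads per library, and in the median gene 91.6% of 3'UTR reads fell at the pair. Among genes named below this share ran from 50.8% in Hrb27C to 99.9% in CG13102. It was 55.0% in PDZ-GEF, 62.2% in Wee1, 62.3% in IA-2 and 63.3% in ab. In nrv3 it was 67.75%, in numb 69.15%, in chinmo 69.4% and in CG9426 72.9%. The distal shares of all these genes leave out other sites.

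Members just inside the limits were step, at 501 nt, and da, at 507 nt, while Chd1, at 492 nt, and CG34183, at 498 nt, fell just outside. Ndf passed with a minor share of 5.49%, and Dh31 missed with 4.88%. E23 passed with a mean of 21.8 reads, and Adat1 missed with 19.6. Of 399 pairs at least 500 nt apart on 2L, 132 had too few reads and 143 more had a minor site under 5%.

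To ask whether site choice at wide pairs differs between tissues, distal and proximal read counts were compared between wild-type heads and bodies. Heads used the distal site more. Over the 51 wide pairs with at least 10 reads in every library, the median distal share was 76.8, 61.3, 67.3 and 70.9% in wild-type head replicates 1 to 4, against 25.4, 15.0, 25.8 and 28.0% in wild-type body replicates 1 to 4. The lowest head library thus lay above the highest body library, in both ranges. Taken pair by pair over all wide pairs, the median of head minus body was smaller, at 18.0 percentage points. For pairs under 150 nt the library medians averaged 50.4% ± 2.54 in heads and 38.9% ± 4.02 in bodies (SD, n = 4 each). For pairs of 150 to under 500 nt they averaged 65.6% ± 5.17 in heads and 43.8% ± 2.07 in bodies. In both classes the lowest head library again lay above the highest body library, at 46.9 against 42.9% and 59.5 against 45.45%. The separation of the libraries was thus not particular to wide pairs. In bulk tissue, fewer cells of a type and less RNA per cell cannot be told apart, and the part of head RNA in the earlier body libraries, whose marker sums are given above, was not tested.

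**Figure D1:**
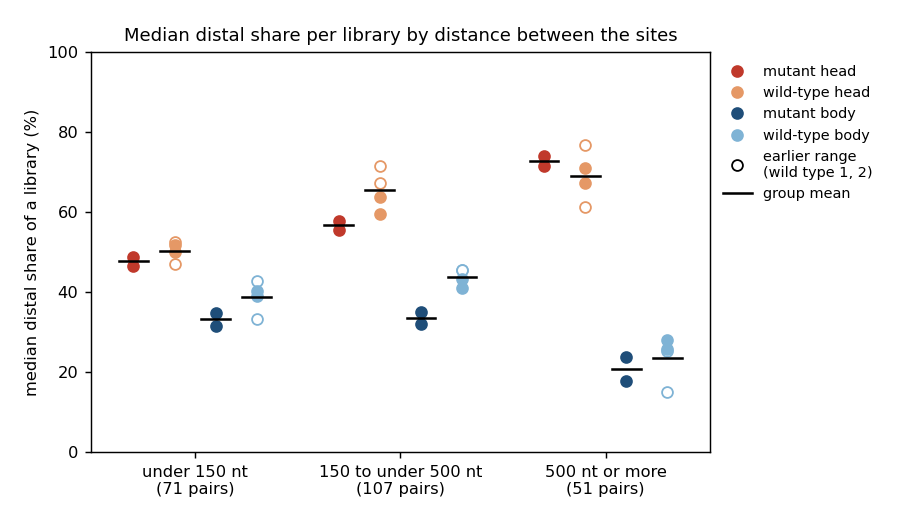
Median distal share of each library (y axis, %) over pairs with at least 10 reads in every library, by distance between the sites (x axis); points are libraries, open points those of the earlier range, and bars are group means. At 500 nt or more, head libraries lie between 61.3 and 76.8% and body libraries between 15.0 and 28.0%.

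Per pair, 42 of the 124 wide pairs (33.9%) were called with edgeR's quasi-likelihood test at a Benjamini-Hochberg adjusted p under 0.05, where 18.3% of all pairs tested were called. In heads 40 of them moved toward the distal site, against 18.0% of all pairs, and 2 toward the proximal site, against 0.271% of all pairs. The median log2 change of the distal to proximal read ratio, head over body, was 2.22 over wide pairs and 0.85 over all pairs. With 3 reads put in place of 0 where a group had no read at a site, these medians were 2.23 and 0.88. Of the 124, 109 had a positive fitted log2 change, and in 30 the head and body libraries with reads did not overlap (18.6% of all pairs). The difference between wide pairs and other pairs was described by these shares and was not tested. The 109 do not all stand for a higher distal share in heads. For CG17075 the sign carries no information, because no wild-type library had a proximal read. CG10839 and CG13102 had positive log2 changes of 0.39 and 0.98. Their mean distal share was nevertheless lower in wild-type heads, at 0% in heads against 17.3 and 9.23% in wild-type bodies.

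The share of pairs called was higher at larger distances up to 2000 nt. Among pairs under 150 nt, 13 of 226 were called, with a median log2 change of 0.37. Among pairs of 150 to under 500 nt it was 53 of 250, with a median of 0.89. From 500 to under 1000 nt 19 of 75 were called (median 1.29), and from 1000 to under 2000 nt 19 of 37 (median 2.69). At 2000 nt or more it was 4 of 12 (median 2.76). All 23 calls at 1000 nt or more were toward the distal site. Within the wide pairs, distance and log2 change had a Spearman rho of 0.27 over 124 pairs, which share their libraries.

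**Figure D2:**
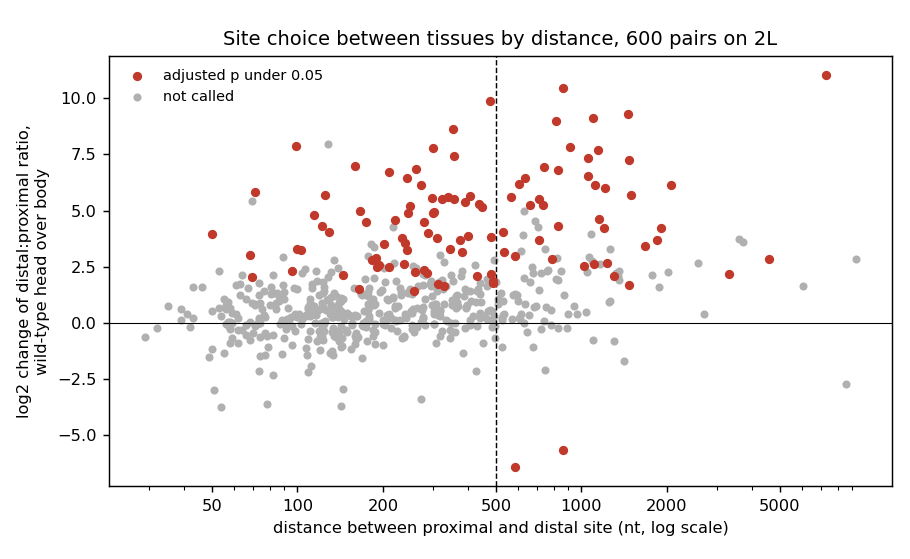
Log2 change of the distal to proximal read ratio, wild-type head over wild-type body (y axis), against the distance between the 2 sites (x axis, nt, log scale) for 600 pairs on 2L; red points had an edgeR adjusted p under 0.05, and the dashed line marks 500 nt. To its right 40 called pairs lie above 0 and 2 below it.

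The tissue term was fitted beside a term for the range of sample numbers. Within the earlier range the mean share was higher in heads for 39 of the 40 pairs called toward the distal site, and within the later range for all 40, though these pairs were selected on the same libraries, which largely fixes this direction. The median of head minus body over all wide pairs was 16.7 percentage points in the earlier range and 17.1 in the later. With wild-type samples paired by replicate number, 81 wide pairs were called (78 toward the distal site, 3 toward the proximal), including all 42. Tested in the earlier range alone no pair was called in either set, in the later range alone 77 wide pairs, and with no term for the range 12. Without wild-type body replicate 4 or wild-type head replicate 3 the count was 26, and without wild-type head replicate 4 it was 27.

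Transcription factors of the BTB and zinc finger class showed some of the widest tissue differences. ab (abrupt), which directs dendrite shape in sensory neurons, has sites on the plus strand at positions 11259617 (proximal) and 11261081 (distal) of 2L (BDGP5), the distal one at its annotated end. Its distal share was 100, 90.9, 100 and 97.4% in wild-type heads and 7.14, 19.2, 3.23 and 2.13% in wild-type bodies (log2 change 9.30, SE 1.13, edgeR adjusted p = 0.000668). The head value of replicate 1 rests on 2 reads, and no head library came near a body library. chinmo, which sets the temporal identity of neurons, had the third widest pair, 7301 nt, at positions 1697396 (proximal) and 1704697 (distal) on the plus strand. Its share was 100% in the 3 wild-type head libraries with reads (replicate 2 had none) and 7.14, 0, 26.1 and 25% in wild-type bodies. No proximal read was seen among 245 in wild-type heads, which allows a proximal share of up to 1.22%. The proximal chinmo site passed the 5% minimum through the body libraries, with which the test compares the heads. With reads pooled over both ranges the distal to proximal ratio was 339-fold higher in heads, with 3 reads over the group as the floor (edgeR adjusted p = 0.000912). Because the ranges weigh unequally in the pool, the value is no lower limit within a range. crol, a zinc finger factor, had 60, 97.2, 40 and 46.3% in wild-type heads and 43.9, 90, 24.4 and 25.7% in wild-type bodies; its groups overlapped and it was not called (adjusted p = 0.414), though it was with samples paired by number (adjusted p = 0.00379). Of 5 listed transcription factors with a tested pair, 3 had wide pairs and 2 of these were called, both toward the distal site. The list was chosen with earlier results of these data known, so its count gives no separate support.

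The next called pairs are those of Wee1, Cdc14, Pde1c, PDZ-GEF and Cul3, set together here after their values were seen. Wee1, the kinase that inhibits Cdk1, has sites at 6911522 (proximal) and 6910887 (distal) on the minus strand, the distal one 203 nt past the annotated gene end. The share of the pair's reads at the distal site was 91.7, 81.8, 85.6 and 83.8% in wild-type heads and 5.63, 3.03, 7.21 and 8.89% in wild-type bodies (log2 change 6.44, SE 0.61, edgeR adjusted p = 0.000333). Cdc14, a phosphatase, had 90.9, 53.9, 98.0 and 98.0% in wild-type heads and 5.02, 3.70, 8.76 and 6.71% in wild-type bodies (log2 change 7.82, SE 0.86, edgeR adjusted p = 0.000361). In Cdc14 head replicate 2, with 26 reads, stood below the other head libraries and still above every body library. Pde1c, which hydrolyses cyclic nucleotides, had 92.7, 72.2, 56.6 and 60.1% in wild-type heads and 34.5, 22.2, 4 and 17.1% in wild-type bodies (log2 change 3.68, SE 0.69, edgeR adjusted p = 0.00506). PDZ-GEF, an exchange factor for Rap1, had 100, 88.9, 97.6 and 100% in wild-type heads and 21.1, 20.4, 25 and 16.2% in wild-type bodies (log2 change 7.37, SE 0.95, edgeR adjusted p = 0.000721). When positions under 5 pooled reads were left out its 2 most used sites lay 395 nt apart, and that pair was not called. Cul3, the scaffold of a ubiquitin ligase, had 95.1, 71.2, 30.6 and 57.4% in wild-type heads and 17.2, 6.18, 2.31 and 1.39% in wild-type bodies (log2 change 5.50, SE 0.75, edgeR adjusted p = 0.000908). Its head libraries spread widely, and its body libraries in both ranges lay below them.

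The called pairs of numb, side-II and GlcAT-S come next. numb, which inhibits Notch in asymmetric division, had 100, 90, 93.2 and 96.2% in wild-type heads and 25.4, 23.5, 41.5 and 32.8% in wild-type bodies (log2 change 5.24, SE 0.73, edgeR adjusted p = 0.000944). side-II, an immunoglobulin protein of the Sidestep family, had 100% in all 3 wild-type head libraries with reads and 2.67, 0, 33.3 and 61.5% in wild-type bodies. With reads pooled over both ranges its ratio was 513-fold higher in heads, against a floor of 3 reads (edgeR adjusted p = 0.00192). The ranges weigh unequally there: 174 of 188 head reads came from the later range and 85 of 101 body reads from the earlier. The value is therefore no lower limit within a range. Body libraries of the later range held 3 and 13 reads, 9 of them distal and 7 proximal. All 90 proximal side-II reads came from wild-type bodies. The pair passed the 5% minimum for the minor site only through that group, which the tissue test also uses. GlcAT-S, a glucuronyltransferase, had 92.8, 87.5, 99.6 and 99.4% in wild-type heads and 19.6, 14.4, 61.6 and 66.7% in wild-type bodies (log2 change 6.18, SE 0.51, edgeR adjusted p = 0.000136). The GlcAT-S body libraries split by range, and each lay below all head libraries.

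The other pairs named by size of change were those of Kua, GramD1B, CG10492, CG15824 and CG9426. Kua had 100, 100, 100 and 97.4% in wild-type heads and 60, 54.5, 26.3 and 38.9% in wild-type bodies (log2 change 6.93, SE 0.85, edgeR adjusted p = 0.000668). The proximal Kua site, too, passed the 5% minimum through the body libraries. GramD1B, named for its GRAM domain, had 100, 81.8, 66.7 and 33.3% in wild-type heads and 20, 26.7, 6.25 and 3.39% in wild-type bodies, from 4 to 11 reads per head library (log2 change 4.21, SE 0.82, edgeR adjusted p = 0.00589). The call of GramD1B was lost without wild-type body replicate 4. CG10492 averaged 91.5% ± 2.97 in wild-type heads and 14.1% ± 1.30 in wild-type bodies (SD, n = 4 each; edgeR adjusted p = 0.000333). CG15824 averaged 91.1% ± 11.2 in wild-type heads and 13.9% ± 5.09 in wild-type bodies (log2 change 7.70, SE 0.77, edgeR adjusted p = 0.000333). CG9426 averaged 84.2% ± 17.8 in wild-type heads and 26.4% ± 29.6 in wild-type bodies (log2 change 6.81, SE 0.90, edgeR adjusted p = 0.000818). In each of these 5 genes the lowest head library lay above the highest body library, because the naming rule required it. The same holds for ab, chinmo and the called pairs from Wee1 to GlcAT-S above, so their separation is not a separate finding.

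**Figure D3:**
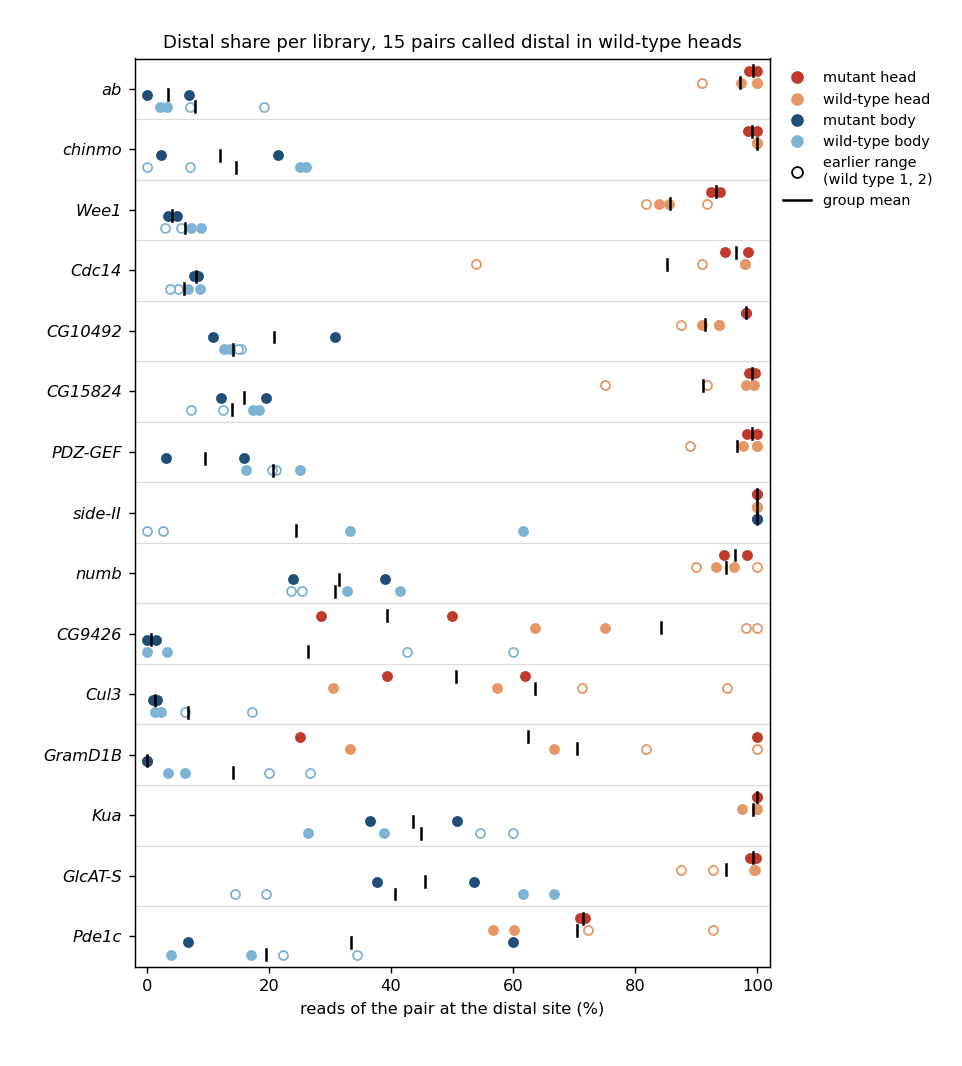
Share of a pair's reads at the distal site (x axis, %) in every library for 15 of the 16 pairs with the largest wild-type tissue change among called pairs whose head and body libraries do not overlap; points are libraries, open points those of the earlier range, and bars are group means. Wild-type heads lie to the right of wild-type bodies in every row, and in side-II the mutant bodies lie at 100%, from 3 reads each.

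The remaining 24 pairs called toward the distal site lie in Ca-alpha1D, a calcium channel subunit, homer, dock, Hydr2, Ptp36E, CG13784, Reps, GABA-B-R3, CG7231, DIP-epsilon, toc, snRNP-U1-70K, Kdm5, Oatp30B, BicD, bchs, Pgant5, CIAPIN1, Tsp26A, oaf, Cka, bun, Hrb27C and IA-2. They include the dynein adaptor BicD, the histone demethylase Kdm5, the adaptor dock of axon guidance and a metabotropic GABA receptor gene. Over all 40 pairs the mean share was 47.4 percentage points higher in wild-type heads at the median, with a range of 9.96 to 89.1. In 16 of the 40 the mean distal share in heads was over 90%, and in 32 it was under 50% in bodies. By these shares and the genomic distance between the sites, the mean end lay 480 nt farther downstream in wild-type heads at the median, with introns not removed. The distal site was an annotated end in 25 of the 40 and lay past the annotated gene end in 7, against 43 and 20 of the 82 wide pairs not called.

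Among RNA-binding regulators of translation the pairs differed. Hrb27C, an hnRNP, has sites 4566 nt apart at 6927545 (proximal) and 6932111 (distal) on the plus strand. Its distal share was 78.2, 65.5, 67.3 and 60.3% in wild-type heads and 26.1, 30.8, 17.5 and 20.3% in wild-type bodies (log2 change 2.86, SE 0.47, edgeR adjusted p = 0.00251). bru1 (Bruno), known as a repressor of oskar translation, went the other way, with 0, 40, 0 and 0.282% distal in wild-type heads and 66.7, 88.2, 14.6 and 28.4% in wild-type bodies (log2 change -6.41, SE 1.18, edgeR adjusted p = 0.00448). Head replicate 2 of bru1 held 5 reads, and heads and bodies overlapped there. Rbp9, the ELAV family gene on 2L, has sites 3586 nt apart, both at annotated ends. The share of the pair's reads at the distal site was 89.2, 100, 27.9 and 26.1% in wild-type heads and 45.0, 100, 2.11 and 1.80% in wild-type bodies. The Rbp9 values differed more by range than by tissue, and the tissue change was not called (log2 change 3.74, SE 1.18, edgeR adjusted p = 0.0569; with samples paired by number adjusted p = 6.53e-25). It was called without wild-type body replicate 2 (adjusted p = 0.00506), wild-type head replicate 1 (0.0257) or wild-type head replicate 2 (0.0264). The second pair called toward the proximal site was that of IFT43, a subunit of intraflagellar transport. Its distal site lay 860 nt past the annotated gene end and had no read among 120 in wild-type heads, which allows a share of up to 2.50%. In wild-type bodies the IFT43 share was 18.3, 20.8, 0 and 0%, so that distal reads came from the earlier range (edgeR adjusted p = 0.0344). The distal IFT43 site passed the 5% minimum through these earlier body libraries, which the tissue test also uses. The IFT43 call was lost without any one of the wild-type libraries other than head replicate 2. Of 11 listed genes with known long 3'UTR forms, 4 lay in the regions used and 3 had a tested pair. These were Hrb27C, chinmo and ab, all with wide pairs called toward the distal site. The list was chosen with earlier results of these data known, so this count gives no separate support.

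The widest pairs after that were not all called. Plc21C, a phospholipase C beta, holds the widest pair, 9298 nt, with both sites at annotated ends. Its distal share was 44.4, 6.78, 92.9 and 92.5% in wild-type heads and 15.6, 2.33, 60 and 39.3% in wild-type bodies (log2 change 2.85, SE 0.92, edgeR adjusted p = 0.0619; paired by number adjusted p = 2.11e-08). Plc21C was called without wild-type body replicate 1 (adjusted p = 0.0258) or wild-type head replicate 2 (0.00400). Syt1, the calcium sensor of synaptic vesicle release, has sites 8561 nt apart and had 32.6, 0, 38.8 and 49.4% distal in wild-type heads and 43.7, 0, 83.3 and 88% in wild-type bodies (log2 change -2.71, SE 2.75, edgeR adjusted p = 0.63; paired by number adjusted p = 0.028). Replicate 2 of both tissues had no distal Syt1 read among 3664 in heads and 285 in bodies. Nubpl, whose human counterpart assembles mitochondrial complex I, had 10.3, 1.45, 46.6 and 55.2% in wild-type heads and 5.91, 0, 19.0 and 17.8% in wild-type bodies (log2 change 1.63, SE 0.75, edgeR adjusted p = 0.19; paired by number adjusted p = 2.11e-07), and was called without wild-type head replicate 2 (adjusted p = 0.0275).

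Some of the most deeply read wide pairs were also not called between tissues. nrv2, a beta subunit of the sodium pump, had 99.9, 75.7, 98.4 and 98.4% distal in wild-type heads and 95.0, 5.40, 85.0 and 82.5% in wild-type bodies (log2 change 3.90, SE 2.24, edgeR adjusted p = 0.306; paired by number adjusted p = 1.46e-32). Mhc, the muscle myosin heavy chain, had 9.79, 12.1, 51.6 and 53.1% in wild-type heads and 3.66, 11, 31.8 and 36.8% in wild-type bodies (log2 change 0.97, SE 0.48, edgeR adjusted p = 0.226; paired by number adjusted p = 0.00232). Rsf1, a splicing repressor, had 87.3, 95.9, 12.9 and 16.5% in wild-type heads and 79.1, 90, 8.90 and 11.8% in wild-type bodies (log2 change 0.85, SE 0.53, edgeR adjusted p = 0.353; paired by number adjusted p = 0.039). CG31639 had 100, 82.4, 97.4 and 100% in wild-type heads and 99.9, 76.2, 99.5 and 99.3% in wild-type bodies (log2 change -2.12, SE 2.66, edgeR adjusted p = 0.712). In Mhc and Rsf1 the ranges of sample numbers lay farther apart than the tissues, in opposite directions. Without wild-type body replicate 2, Mhc was called (adjusted p = 0.0439), as was CG31639, toward the proximal site (adjusted p = 0.0478).

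The tissue comparison was then made in mutant flies, whose libraries the wild-type comparison does not use. In mutant heads 61 wide pairs were called against mutant bodies, where 27.8% of all pairs were, 60 of them toward the distal site, where 27.0% of all pairs were, and 1 toward the proximal (0.814% of all pairs). The median log2 change was 2.63 over wide pairs and 1.17 over all pairs, and 2.63 and 1.20 with 3 reads in place of 0. All 40 pairs called toward the distal site in wild-type heads had a positive fitted log2 change in the mutant. For side-II this sign carries no information, because neither mutant tissue had a proximal read. Of the 40, 33 were called in the mutant, or 82.5% of the wild-type calls and 55.0% of the mutant calls. At 1000 nt or more 30 of 49 pairs were called, all toward the distal site. Without mutant head replicate 2 the count fell to 39.

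**Figure D4:**
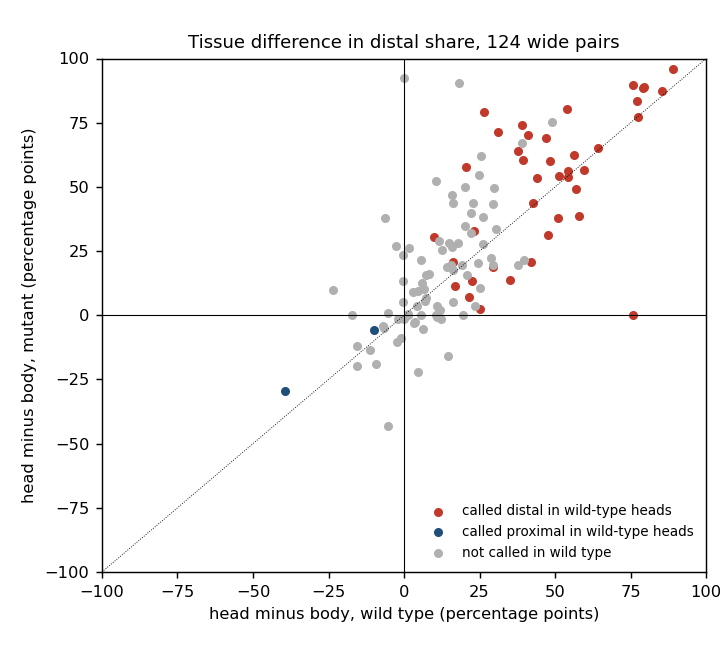
Head minus body difference in mean distal share (percentage points) in the mutant (y axis) against wild type (x axis) for the 124 wide pairs; red points were called toward the distal site in wild-type heads, blue points toward the proximal, and the dotted line marks equal differences. The 40 red points lie at or above 0 on both axes, and the medians over all wide pairs are 21.2 points in the mutant and 18.0 in wild type.

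The values of the same genes in the mutant follow. ab had 100 and 98.6% distal in mutant heads and 0 and 6.94% in mutant bodies (log2 change 10.87, SE 1.20, edgeR adjusted p = 4.48e-05). chinmo had 100 and 98.4% in mutant heads and 2.38 and 21.4% in mutant bodies (log2 change 9.96, SE 1.15, edgeR adjusted p = 0.0001). Wee1 had 93.9 and 92.3% in mutant heads and 4.85 and 3.47% in mutant bodies (log2 change 8.28, SE 0.65, edgeR adjusted p = 4.18e-06), and Cdc14 had 98.4 and 94.7% in mutant heads and 8.33 and 7.80% in mutant bodies (log2 change 8.40, SE 0.62, edgeR adjusted p = 4.18e-06). These 4 genes kept the separation of the tissues in every mutant library. bru1 was again called toward the proximal site, with 0 and 1.31% in mutant heads and 22.5 and 37.6% in mutant bodies (log2 change -5.95, SE 0.95, edgeR adjusted p = 0.000557). side-II had 100% in both tissues, from 97 and 115 reads in mutant heads and 3 and 3 in mutant bodies, and its tissue difference was not detectable at this depth, although limma on log2 ratios called it (adjusted p = 0.000841). IFT43 was not called (adjusted p = 0.385). Pde1c had 70.9 and 71.8% in mutant heads and 60 and 6.74% in mutant bodies; replicate 1 of the bodies held 5 reads (log2 change 4.05, SE 1.00, edgeR adjusted p = 0.00946). In a fit of mutant libraries alone Pde1c was not called (log2 change 3.78, edgeR adjusted p = 0.0558). The mutant call of Pde1c was lost without mutant body replicate 2 or either mutant head library, that of CG9426 without mutant head replicate 1 and that of GramD1B without mutant head replicate 2.

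The genotype comparison asks whether a slow polymerase shifts site choice, and used the 8 libraries of the later range. In heads 6 wide pairs were called between mutant and wild type, 4 of them toward the proximal site in the mutant and 2 toward the distal. Over all pairs 4.48% were called, 2.71% toward the proximal site and 1.76% toward the distal. In bodies 4 wide pairs were called, 2 in each direction, where 5.02% of all pairs were, 3.39% toward the proximal site and 1.63% toward the distal. These shares of the wide pairs, 4.84% in heads and 3.23% in bodies, lie near those of all pairs. The median distal share over 51 wide pairs averaged 72.8% ± 1.89 in mutant heads and 69.1% ± 2.58 in wild-type heads of the later range, and 20.9% ± 4.19 in mutant bodies and 26.9% ± 1.57 in wild-type bodies of that range (SD, n = 2 each). The head count was 3 without mutant head replicate 1 and 23 in a fit of head libraries alone. The body count was 18 without mutant body replicate 1, 41 without mutant body replicate 2 and 1 without wild-type body replicate 3 or 4. Mutant body replicates 1 and 2 also differed in their share of mitochondrial reads, 4.50% and 22.0%, and its part in these counts was not tested.

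CG13077 and mxt were called in both tissues. CG13077 has its proximal site at the annotated end and its distal site 649 nt past it, with a gene on the opposite strand between them, at 19567355 (proximal) and 19568008 (distal) on the plus strand. The share of the pair's reads at the distal site was 1.87 and 1.92% in mutant heads and 46.8, 55.6, 52.4 and 47.9% in wild-type heads (log2 change -5.68, SE 0.60, edgeR adjusted p = 7.49e-05). In bodies it was 11.4 and 2.74% in mutants and 49.5, 51.4, 42.4 and 34.6% in wild type (log2 change -3.24, SE 0.72, edgeR adjusted p = 0.0178). Every mutant library thus lay below every wild-type library, those of the earlier range included. The body call was lost without wild-type body replicate 3 or 4, and in a fit of body libraries alone (adjusted p = 0.0956).

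mxt (mextli), which binds eIF4E in translation initiation, has sites 609 nt apart, both at annotated ends, at 4842087 (proximal) and 4841478 (distal) on the minus strand. Its distal share was 100 and 99.7% in mutant heads and 100, 100, 65.7 and 70.9% in wild-type heads (log2 change 7.97, SE 0.81, edgeR adjusted p = 7.49e-05). In bodies it was 99.8 and 99.1% in mutants and 100, 100, 63.2 and 68.7% in wild type (log2 change 6.67, SE 0.72, edgeR adjusted p = 0.000162). Wild-type replicates 1 and 2, which the genotype test leaves out, lay at 100% beside the mutants in both tissues, so that the difference is seen against the later wild-type libraries and not the earlier ones. The proximal mxt site passed the 5% minimum through these later wild-type libraries, with which the test compares the mutants. When positions were joined within 10 nt, the 2 most used mxt sites lay 21 nt apart, and that pair was not called in heads (adjusted p = 0.918) or bodies (adjusted p = 0.772).

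IA-2, Pde11, Rbp9 and nrv2 were called in heads. IA-2, a phosphatase-like membrane protein of dense core vesicles, has sites 3325 nt apart. The share of the pair's reads at the distal site was 4.67 and 0% in mutant heads and 94.1, 93.8, 75.7 and 78% in wild-type heads (log2 change -7.18, SE 0.87, edgeR adjusted p = 0.000571). Only 62.3% of IA-2 3'UTR reads fell at the pair over all libraries. It held 228 reads in mutant heads and 1254 in later wild-type heads. Gene levels there were 452 and 426 CPM against 838 and 917 CPM. The pair thus held a smaller part of the gene's reads in mutant heads, and these shares leave out the rest. In bodies the IA-2 pair had no distal read among 23 in mutants, which allows a share of up to 13.0%, and 80.2, 90.9, 30.4 and 39.5% in wild type, a difference that was not called (adjusted p = 0.0951). Mutant and wild-type libraries of IA-2 did not overlap in either tissue, and wild-type heads lay above wild-type bodies within each range (log2 change 2.18, SE 0.47, edgeR adjusted p = 0.00966). Pde11, a cyclic nucleotide phosphodiesterase, had 100 and 99.4% in mutant heads and 91.4, 84.6, 83.5 and 82.3% in wild-type heads (log2 change 5.54, SE 0.97, edgeR adjusted p = 0.00439). Its shares were 100 and 96.4% in mutant bodies and 80.7, 60, 72.2 and 83.0% in wild-type bodies (log2 change 3.22, SE 0.92, edgeR adjusted p = 0.0711), not called there, but called without mutant body replicate 1 (adjusted p = 0.00584) or 2 (0.0228). The Pde11 head call was lost without mutant head replicate 1. The proximal Pde11 site passed the 5% minimum through the wild-type libraries, with which the test compares the mutants.

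Rbp9 moved toward the proximal site in mutant heads, with 6.88 and 8.06% distal against 89.2, 100, 27.9 and 26.1% in wild-type heads (log2 change -2.20, SE 0.43, edgeR adjusted p = 0.01). In bodies it had 4.25 and 3.54% in mutants and 45.0, 100, 2.11 and 1.80% in wild type, where the later libraries lay below the mutants and the earlier ones above. The Rbp9 change in heads minus that in bodies was -3.21 on the log2 scale (SE 0.66, unadjusted p = 0.000372, edgeR adjusted p = 0.125). That difference was called without mutant body replicate 1 (adjusted p = 2.76e-05) or 2 (1.82e-07). nrv2 had 91.9 and 92.4% in mutant heads and 99.9, 75.7, 98.4 and 98.4% in wild-type heads (log2 change -2.36, SE 0.50, edgeR adjusted p = 0.0152). The calls of Rbp9 and nrv2 in heads were lost without any one of the 4 head libraries tested. When positions were joined within 10 nt the 2 most used nrv2 sites lay 48 nt apart, and the mutant change of that pair was positive and not called (log2 1.29, adjusted p = 0.128).

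Mhc and CG17075 were called in bodies. Mhc had 72.7 and 77.0% distal in mutant bodies and 3.66, 11, 31.8 and 36.8% in wild-type bodies (log2 change 2.54, SE 0.54, edgeR adjusted p = 0.0134). In heads it had 67.2 and 81.4% in mutants and 9.79, 12.1, 51.6 and 53.1% in wild type. Mutant libraries lay above wild-type libraries of both ranges in each tissue. CG17075, with sites 3699 nt apart, had 7.14 and 7.69% in mutant bodies, from 14 and 26 reads. The later wild-type bodies had no proximal CG17075 read, in 2 and 4 reads, and the earlier ones none in 23 and 9. Its distal to proximal ratio in mutant bodies was 24.7-fold lower than in the later wild-type bodies, with 3 proximal reads over the group as the floor (edgeR adjusted p = 0.0276). The value rests on 3 distal reads in mutant bodies and 6 in the later wild-type bodies, so it is no lower limit. All head libraries of both genotypes lay at 100% for CG17075. Its 37 proximal reads thus all came from mutant bodies. The pair passed the 5% minimum for the minor site only through the group in which it was called. The body calls of Mhc and CG17075 were lost without wild-type body replicate 3 or 4. CG31639, the sixth by p in bodies, was not called (log2 change 2.46, SE 0.70, edgeR adjusted p = 0.0763), but was without mutant body replicate 1 (adjusted p = 0.0242) or 2 (0.0156).

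**Figure D5:**
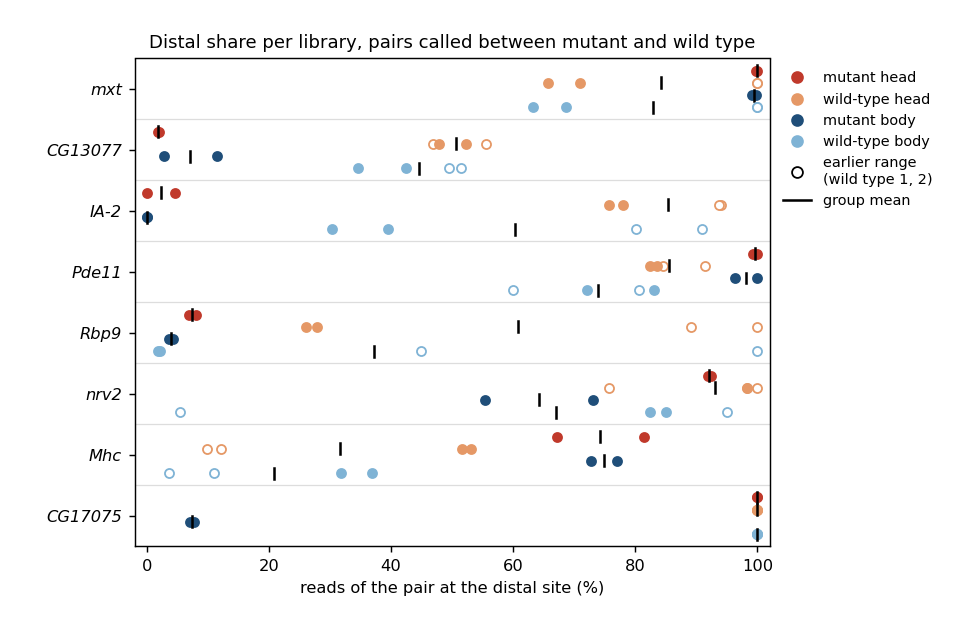
Share of a pair's reads at the distal site (x axis, %) in every library for the 8 wide pairs called between mutant and wild type in heads or bodies; points are libraries, open points the wild-type libraries of the earlier range, which the genotype test does not use, and bars are group means. In CG13077 and IA-2 mutants lie left of all wild-type libraries, while in mxt the earlier wild-type libraries lie at 100% with the mutants.

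Whether the genotype changes site choice differently in the tissues was tested as an interaction. No wide pair was called, where 0.0% of all pairs were. At an unadjusted p under 0.05 there were 9 wide pairs and 34 of all 737 pairs, and limma on log2 ratios called 1 wide pair, CG17075 (log2 6.45, adjusted p = 0.0284), and 3 of all pairs. CG17075 entered the wide pairs only through its mutant body reads. Without mutant body replicate 2 edgeR called 19 wide pairs, and without mutant body replicate 1 it called 2.

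Transcript levels of the same genes were compared to see whether genes whose site choice differs also differ in level. Of the 124 genes, 49 were called between wild-type heads and bodies (28 higher and 21 lower in heads), where 47.1% of all genes tested were, 16.9% higher and 30.2% lower. Among the 40 genes with a pair called toward the distal site, 2 were called higher in heads, 5 lower and 33 neither. Genes higher in heads included Syt1, the head marker nrv3, CG13077, CG17075 and nolo. nrv3 averaged 1518 ± 358 CPM in wild-type heads and 112 ± 36.6 CPM in wild-type bodies (SD, n = 4 each; log2 change 3.55, SE 0.35, edgeR adjusted p = 9.94e-05). CG13077 averaged 860 ± 81.6 CPM in wild-type heads and 73.6 ± 32.4 CPM in wild-type bodies (log2 change 3.42, SE 0.44, edgeR adjusted p = 0.00026). Genes lower in heads included CG31639, CG13102, CG15256, CG10839 and CG14071. CG15256 averaged 7.62 ± 6.95 CPM in wild-type heads and 429 ± 288 CPM in wild-type bodies (log2 change -5.92, SE 0.49, edgeR adjusted p = 7.31e-05). For CG10839 and CG13102 the wild-type head libraries held at most 1 and 8 reads at the pair, so their site choice in heads could not be read.

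Between genotypes none of the 124 genes was called in heads, where 0.658% of all genes were, while DESeq2 called 6 of them. In bodies CG17075 was called higher and Mhc and Bsg, an immunoglobulin membrane protein, lower in mutants, where 2.67% of all genes were called, 1.39% higher and 1.28% lower. Mhc had 99.9 and 133 CPM in mutant bodies, against 5724, 927, 1531 and 531 CPM in wild-type bodies (log2 change -3.16, SE 0.58, edgeR adjusted p = 0.0391 against the 2 later ones), so that mutants lay below every wild-type library. CG17075 had 17.2 and 26.4 CPM in mutant bodies, against 19.6, 25.0, 1.82 and 3.34 CPM in wild-type bodies (log2 change 3.03, SE 0.50, edgeR adjusted p = 0.0289 against the 2 later ones). The mutant values of CG17075 thus lay above the later wild-type bodies and level with the earlier ones, which the test leaves out. Mhc was not called without mutant body replicate 1 (adjusted p = 0.123). Without wild-type body replicate 3 or 4 none of the 124 genes was called in bodies, and without mutant body replicate 2 the count was 43.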

How the data were processed

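Deposited files held whole-number counts of reads per poly(A) position, strand and chromosome, without normalization by the authors as far as the values show. Per the submitters' processing notes, Bowtie2 and build BDGP5 were used. Tail filters and further settings: not given in the sources used here. Gene models came from a BDGP6 annotation and no coordinate was converted, so only stretches of 2L and 3L where coordinates coincide were used: on 2L 61.7% of 3907 positions with at least 200 reads lay within 10 nt of an annotated end, against 0.256% after a move of 5000 nt.

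Positions within 24 nt were joined into sites, and sites assigned by strand to genes up to 1000 nt past their end (91.1% of reads to 1 gene). Pairs needed a mean of 20 reads per library and a minor site of at least 5% of mean CPM. edgeR 4.0.16 (R 4.3.3) tested distal against proximal counts with a term per library, Benjamini-Hochberg over 737 pairs, threshold 0.05. The SE of a log2 change was its size over the root of F. Gene counts were tested with edgeR, TMM and filterByExpr. limma 3.58.1 and DESeq2 1.42.0 were alternatives. Scripts were tested on simulated data. A count of 0 was bounded by 3 reads, which covers counting error only, since PCR copies are not separate molecules.

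Same-numbered wild-type heads and bodies deviated together from their group means (correlations 0.897, 0.899, 0.906 and 0.912), which paired them by number; the correlation within the later range was -0.0116, and 0.801 within the earlier, so the pairing comes from the data and in large part from the range. No 2 libraries of a group agreed within sampling noise (chi-square per degree of freedom 4.39 or more). Named genes were, by rule, the 16 called pairs with the largest non-overlapping tissue change, all called toward the proximal site, the 6 deepest not called, the 6 smallest p per genotype comparison, the 5 widest, 5 per direction in expression and all on fixed lists. Values of 1 of these 16 pairs are not reported here. The wide pairs, lists and tests were chosen with earlier results of these data known.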

Additional observations from a re-analysis of the deposited data

Results flagged for a closer look

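In groups of 4 libraries, 55 groups of the named genes were tested for 1 library far from the other 3 by Dixon's criterion. This flagged 6 of them, and chance flags about 1 in 20 groups. Wild-type head replicate 2 stood lowest in Cdc14, with a distal share of 53.9%, in nrv2, with 75.7%, and in nrv3, with 0%. Wild-type body replicate 2 stood lowest in nrv2, with 5.40%, and in CG31639, with 76.2%. Wild-type head replicate 4 stood lowest in Kua, with 97.4%, where the other 3 head libraries were at 100%.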

How the results depend on the processing

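Between wild-type tissues the number of calls depended on how the ranges of sample numbers entered. Over wide pairs 42 were called (135 of all pairs), against 0 (0) in the earlier range alone, 77 (277) in the later range alone, 12 (30) with no term for the range and 81 (288) with the replicate block. Pairing by number changed the calls of further named genes only from not called to called. At 1000 nt or more 23 were called, and at 2000 nt or more 4. Leaving out 1 library at a time gave 26 to 53 wide pairs (75 to 168 of all). For mutant heads against bodies this range was 39 to 75 (128 to 337), with 30 called at 1000 nt or more and 7 at 2000 nt or more. The 2 mutant pairs of numbers did not deviate together (correlation -0.0528), so the mutant was not paired.

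For mutant against wild type in heads the counts were 6 of the wide pairs and 33 of all, 23 and 160 with head libraries alone, and 3 to 4 and 13 to 17 without 1 library. At 1000 nt or more 3 were called, and at 2000 nt or more 2. In bodies they were 4 and 37, 1 to 41 and 15 to 273 without 1 library, and 23 of all pairs with a mean of at least 50 reads; 1 was called at 1000 nt or more and 1 at 2000 nt or more. The interaction had 0 calls, 0 to 19 of the wide pairs and 0 to 108 of all without 1 library, 1 and 3 with limma, and 1 of all pairs with a mean of at least 1 read or a minor site of at least 10%. Expression calls in heads were 18 of all genes, 69 with no filter on low counts and 103 with DESeq2 (6 of the 124), and 3 to 6 without 1 library. In bodies they were 73, 173 (5) and 211 (10), and 4 to 880 (0 to 43). Between wild-type tissues they were 893 to 1351 (37 to 64) without 1 library.

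Reversed directions were seen in pairs that were not called under the setting. Between wild-type tissues these were nrv3 (-1.25 in the earlier range, and -0.54 to 1.93 without 1 library), IFT43 (0.34 in the later range) and CG31639 (0.28 with the replicate block, and -4.51 to 0.50 without 1 library). Between mutant tissues IFT43 ranged over -3.57 to 0.82 without 1 library. The cause was not tested for these. In heads of the genotype comparison nrv2 turned to 1.29 with positions joined within 10 nt and to 1.29 with positions under 5 pooled reads left out, where its 2 most used sites lay 48 nt apart, so another pair was tested. Where a fit left 1 library in a group, that library was assumed to vary like the other groups. Low read counts in the earlier wild-type head libraries limit single values there, as in chinmo and side-II, where replicate 2 had no read.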
